A study of Mus musculus with 6 samples.

Results

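The 9 genes described here encode proteins of endothelial cell-cell junctions and regulators of those junctions: Cdh5, Cldn5, Pecam1, Esam, Icam2, Jam2, Jam3, Rasip1 and Arhgef15. They were taken by gene symbol from a table of 18404 mouse genes. All 9 passed the filter on low counts, as did 14920 genes in all. Poly(A) RNA was taken from whole ear skin of pups aged 3 days (postnatal day 3). In 3 libraries the pups carried an endothelial deletion of Kdr induced with tamoxifen, called ecko here (Vegfr2ecko in the titles), and 3 libraries came from control pups. Tamoxifen is recorded for both groups, and the design text gives 60 µg per day from postnatal day 1. The name of the series gives a time of 48 h. The genotype of the controls, the driver of the endothelial deletion and the strain are not given in the labels. Replicates are not tied to separate animals or litters there. The p-values therefore rest on the spread of these 6 samples alone, part of which may be technical.

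Endothelial cells line blood and lymphatic vessels and hold together through adherens junctions, built on VE-cadherin, and tight junctions, built on claudins and junctional adhesion molecules. These contacts set how much fluid and how many leukocytes leave the vessel. Kdr encodes VEGFR2, the main receptor for VEGF-A, whose signalling is known to loosen VE-cadherin contacts and to drive sprouting. Inside the cell, small GTPases such as RAP1 and RAC1 and their regulators tie the junctions to the actin cytoskeleton.

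Promoter sequence was at hand for 2 of the 9 genes, Rasip1 and Cldn5, and both are printed here. Each sequence is the 250 bases before the transcription start in RefSeq, build GRCm38.p6, plus strand, at chr7:45627287-45627536 for Rasip1 and chr16:18776597-18776846 for Cldn5. Capitals mark GGAA on either strand, read as TTCC on the minus strand, which is the core recognised by ETS transcription factors.
Rasip1: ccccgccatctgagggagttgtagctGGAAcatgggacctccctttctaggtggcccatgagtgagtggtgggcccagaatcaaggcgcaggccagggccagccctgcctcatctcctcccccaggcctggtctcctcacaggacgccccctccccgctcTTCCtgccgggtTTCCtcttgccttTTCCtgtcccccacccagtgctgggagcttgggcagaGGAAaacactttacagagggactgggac
Cldn5: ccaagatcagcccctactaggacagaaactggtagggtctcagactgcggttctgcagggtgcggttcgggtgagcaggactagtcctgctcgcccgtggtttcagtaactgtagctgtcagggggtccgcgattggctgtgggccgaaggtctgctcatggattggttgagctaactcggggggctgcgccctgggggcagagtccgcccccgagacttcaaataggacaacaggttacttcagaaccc
The Rasip1 sequence holds 5 matches to GGAA, and 2 of them, 90 and 65 bases before the start, belong to the longer form CAGGAA. The Cldn5 sequence holds 0 matches to GGAA and 1 match to GGGCGG, the GC box, 45 bases before the start on the minus strand. Neither holds CCGGAA or TATAAA. Among 32851 promoter sequences of the same length, 93.4% hold GGAA, 25.7% CAGGAA, 12.0% CCGGAA, 32.7% GGGCGG and 12.4% TATAAA. Their median number of GGAA matches is 3. A match is a run of letters, and no binding was measured. A link between these sequences and the levels of the 2 genes was not tested.

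Library totals ran from 16987130 to 17979182 expected counts, that is, estimated reads summed over genes. Keratinocyte genes, the keratins Krt5 and Krt14 and junction genes such as Cdh1, summed to 8418 to 9627 CPM (counts scaled to a common library size) in this skin. All 14 endothelial reference genes had counts in every library. Control 3 stood apart, with 5320 CPM summed over 8 skeletal muscle genes against 7339 to 9485 CPM in the other libraries. Control 2 and ecko 3 had 4 and 6 counts of the Y-linked gene Ddx3y, and the other 4 libraries had 1445 to 1641. Each group thus held libraries with many and with almost no Y-linked reads, so not all of its spread is technical. Kdr, the deleted gene, checks the labels: it stood at 89.8, 103 and 77.1 CPM in controls 1, 2 and 3 and at 19.4, 24.2 and 21.6 CPM in ecko 1, 2 and 3. Its log2 fold change was -2.05 ± 0.12 (SE). The adjusted p was 0.000200 by the quasi-likelihood test of edgeR with Benjamini-Hochberg adjustment, the test behind every adjusted p here unless another is named.

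All 9 junction genes had a lower mean CPM in ecko, where 50.5% of all genes did, but 0 of 9 passed the test. Scaled by library totals alone, 8 of the 9 were lower, all but Jam3, where 45.3% of all genes were. The differences ran from 0.75% to 29.0% below the controls, and the median log2 fold change was -0.17, against -0.002 over all genes tested. Arhgef15 lay lowest, then Rasip1, Cdh5 and Jam2, while Cldn5 and Jam3 were nearest to 0. Over all genes 1 was called lower, Kdr itself, which is 0.00670%, and 0 were called higher. In 4 of the 9, Cdh5, Pecam1, Rasip1 and Arhgef15, all 3 ecko libraries were below every control, where 8.11% of all genes were. For Arhgef15 this was nearly a tie, with control 3 and ecko 2 both at 12.39 CPM, from 215 and 221 counts. The same 4 had an unadjusted p under 0.05 in edgeR, where 4.10% of all genes did with a lower level in ecko. DESeq2 called 0 of the 9 as well, where it called 0.174% of all genes lower. By its unadjusted p 3 of them, Cdh5, Rasip1 and Arhgef15, were under 0.05 and lower, where 2.82% of all genes were. Scaled by library totals alone, the separation held for 2 of the 9, Cdh5 and Rasip1, where 6.62% of all genes were separated in that direction. Without control 3 it held for 7, all but Cldn5 and Jam3, where 14.0% of all genes were. In RNA of whole skin, fewer endothelial cells and less of a transcript per cell cannot be told apart.

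**Figure D1:**
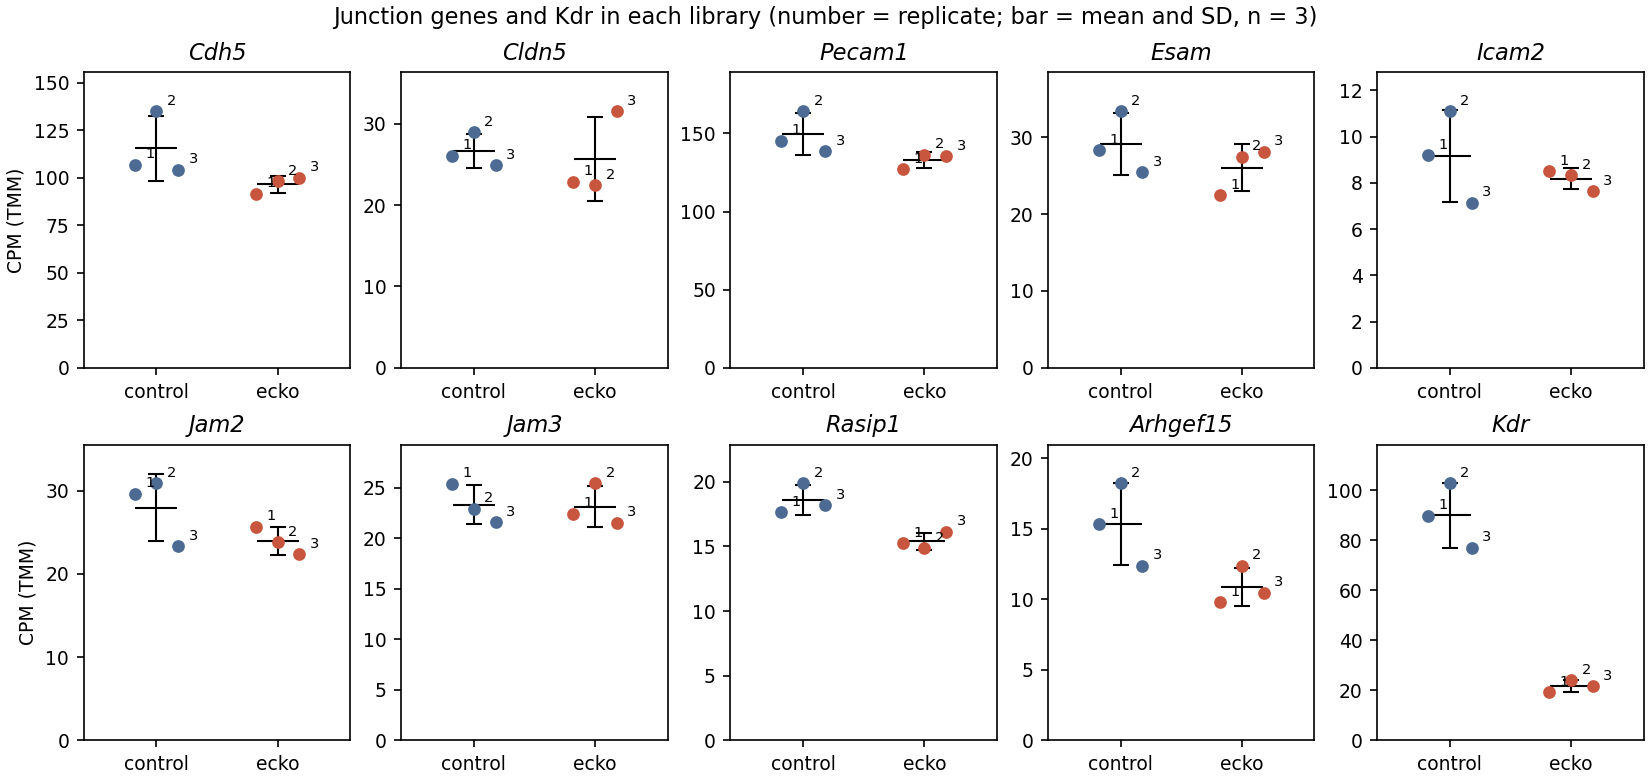
Level of the 9 junction genes and Kdr in CPM (scaled by TMM) on the vertical axis of each panel, from 0, for 3 control (blue) and 3 ecko (red) libraries. Each point is a library with its replicate number, and the horizontal line and bar are the mean and SD of 3 libraries. Control 2 is the highest point in 7 of the 9 junction genes, and the Kdr groups lie far apart.

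Cdh5 encodes VE-cadherin, the adhesion molecule of endothelial adherens junctions. Its gene (Entrez 12562) lies on chromosome 8, 104101613 to 104144504 in GRCm38.p6, plus strand, and the longest annotated transcript has 12 exons. Controls 1, 2 and 3 gave 1905, 2447 and 1812 counts of Cdh5 and ecko 1, 2 and 3 gave 1649, 1755 and 1713, and values below keep that order. Scaled, this was 107, 135 and 104 CPM against 91.7, 98.4 and 100.2 CPM. Control 2 stood well above the other 5 libraries, and the highest ecko library was just under the lowest control. The means were 116 ± 17.2 and 96.7 ± 4.45 CPM (SD, n = 3). The log2 fold change was -0.26 ± 0.10 (SE; adjusted p 0.513). The 95% interval of the difference ran from 28.0% to 2.76% lower. Without control 2 the log2 fold change was -0.13 and without control 3 it was -0.32.

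Pecam1 encodes PECAM-1 (CD31), an immunoglobulin-type adhesion molecule concentrated at endothelial contacts and also present on platelets and leukocytes. The gene (Entrez 18613) is on chromosome 11, 106654213 to 106715281, minus strand, 16 exons. It had the most counts of the 9, with 2586, 2972 and 2402 for the controls against 2282, 2434 and 2320 for ecko. In CPM these were 145, 164 and 138 against 127, 136 and 136, so the groups were separated by a narrow gap. The log2 fold change was -0.17 ± 0.07 (SE; adjusted p 0.550), and it was -0.10 without control 2 and -0.21 without control 3.

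Icam2, an adhesion molecule that binds the leukocyte integrin LFA-1, sits 266073 bases from Pecam1 on the same strand (Entrez 15896, chromosome 11, 106377656 to 106388139, 4 exons). It was the least counted member, at 164, 201 and 124 counts for the controls against 153, 149 and 131 for ecko. Its lowest library was control 3, at 7.15 CPM, and its highest control 2, at 11.1 CPM, so the controls alone spanned all the ecko libraries. The means were 9.16 ± 1.99 and 8.17 ± 0.45 CPM (SD, n = 3), and the log2 fold change was -0.16 ± 0.16 (SE; adjusted p 0.777). It was -0.004 without control 2, -0.31 without control 3 and 0.04 in the 4 libraries with Ddx3y reads.

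Because Pecam1 and Icam2 are also made by blood cells, marker genes of those cells were read beside them. Of 8 leukocyte genes, Ptprc, Itgb2, Coro1a, Lcp1, Laptm5, Cd53, Csf1r and Spi1, all 8 had a higher mean in ecko (median log2 fold change 0.15) and 0 passed the test. Ptprc and Itgb2, at 0.37 and 0.46, had an unadjusted p under 0.05, where 4.92% of all genes did with a higher level in ecko. In 3 of the 8, those 2 and Laptm5, all ecko libraries were above every control, where 7.55% of all genes were. Csf1r and Spi1 stood at 0.02 and 0.04 and turned to -0.002 and -0.04 without control 2. The 8 leukocyte genes summed to 356 to 404 CPM in the controls and 397 to 423 CPM in ecko. Their part in the Pecam1 and Icam2 values was not tested. Of the 8 platelet genes Gp9, Treml1 and Gp6 had 0 to 3 counts in each library and Ppbp 6 to 13. The whole list summed to 73.6 to 78.7 CPM in the controls and 72.9 to 79.8 CPM in ecko, mostly Pf4 and Itgb3, which macrophages and other cells also express.

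Cldn5 encodes claudin-5, the main claudin of endothelial tight junctions. It is a gene of 1 exon (Entrez 12741, chromosome 16, 18776847 to 18778262, plus strand). Its counts were 464, 523 and 432 for the controls against 411, 400 and 540 for ecko. In CPM these were 26.1, 28.9 and 24.9 against 22.9, 22.4 and 31.6. Ecko 1 and 2 lay below every control, and ecko 3 lay above every control. The log2 fold change was -0.06 ± 0.13 (SE; adjusted p 0.910), with a 95% interval from 22.0% lower to 18.4% higher. It was -0.23 without ecko 3 and 0.03 without ecko 2, so its sign rested on single libraries.

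Esam encodes a junctional immunoglobulin-type adhesion molecule of endothelium and platelets (Entrez 69524, chromosome 9, 37528089 to 37538319, plus strand, 7 exons). Its CPM were 28.3, 33.4 and 25.5 for the controls against 22.5, 27.5 and 28.1 for ecko. Ecko 1 was the lowest of the 6 libraries, and ecko 2 and 3 lay within the control range. The log2 fold change was -0.16 ± 0.12 (SE; adjusted p 0.697). It was -0.05 without control 2, -0.07 without ecko 1 and -0.24 without control 3.

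Jam2 and Jam3 encode the junctional adhesion molecules JAM-B and JAM-C, which bind each other across cells. Jam2 (Entrez 67374, chromosome 16, 84774123 to 84826380, plus strand, 10 exons) stood at 29.7, 30.9 and 23.3 CPM for the controls against 25.7, 23.8 and 22.4 CPM for ecko. Control 3 was low and lay inside the ecko range, while controls 1 and 2 were above it. Its log2 fold change was -0.22 ± 0.12 (SE; adjusted p 0.593), with a 95% interval from 28.2% lower to 2.30% higher, and it was -0.15 without control 2 and -0.33 without control 3.

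Jam3 (Entrez 83964, chromosome 9, 27097384 to 27155421, minus strand, 9 exons) stood at 25.4, 22.9 and 21.6 CPM for the controls against 22.4, 25.4 and 21.5 CPM for ecko. The groups covered the same range. The log2 fold change was -0.01 ± 0.10 (SE; adjusted p 0.980), and its 95% interval ran from 15.2% lower to 16.1% higher. Jam3 is also made outside endothelium, for instance at the junctions of Schwann cells. The 8 Schwann cell genes summed to 183 to 257 CPM in the controls and 227 to 245 CPM in ecko, and their part in the Jam3 level was not tested. An antisense gene, Gm48796, shares 589 exonic bases with Jam3, which is 30.3% of its exon length, and the strand setting of the counting is not given in the sources used here, so the reads of both cannot be told apart. Counts of Jam2 per count of Jam3 were 1.2 ± 0.14 in the controls and 1.04 ± 0.11 in ecko (SD, n = 3), with groups that overlapped.

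Rasip1 encodes a RAS- and RAP1-binding protein that acts at endothelial contacts and is needed for vessel lumens to form. The gene (Entrez 69903) lies on chromosome 7, 45627537 to 45639092, plus strand, 12 exons, downstream of the promoter printed above. Rasip1 counts were 314, 360 and 316 for the controls against 274, 265 and 276 for ecko. The CPM were 17.6, 19.9 and 18.2 against 15.2, 14.9 and 16.1, so the ecko libraries lay together below the controls. Its means of 18.6 ± 1.18 and 15.4 ± 0.66 CPM (SD, n = 3) gave a log2 fold change of -0.27 ± 0.10 (SE; adjusted p 0.505). With 1 library left out it stayed between -0.31 and -0.22. The antisense genes Gm45437 and A030001D20Rik share 222 and 498 exonic bases with it, with the same limit from the unstated strand setting.

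Arhgef15 encodes a guanine nucleotide exchange factor for small GTPases that is found mainly in endothelium (Entrez 442801, chromosome 11, 68928900 to 68956934, minus strand, 17 exons). Its counts were 273, 330 and 215 for the controls against 176, 221 and 179 for ecko. The CPM were 15.3, 18.3 and 12.4 against 9.79, 12.4 and 10.5. Control 3 and ecko 2 were level at this precision, and the other libraries were clearly separated. Its means were 15.3 ± 2.93 and 10.9 ± 1.35 CPM (SD, n = 3). The log2 fold change of -0.49 ± 0.15 (SE) was the lowest of the 9, with a 95% interval from 44.0% to 10.0% lower and an unadjusted p of 0.00892, and the edgeR adjusted p was 0.454. It was -0.62 without control 3 and -0.35 without control 2.

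**Figure D2:**
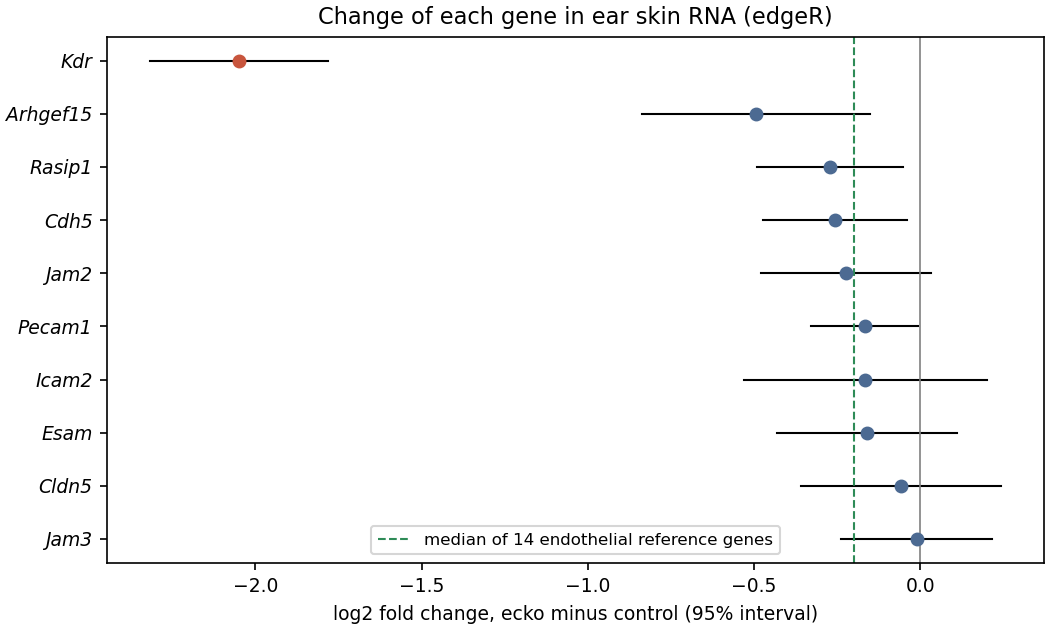
Log2 fold change, ecko minus control, on the horizontal axis for each gene, as a point with its 95% interval from edgeR. The red point, Kdr at -2.05, passed the test and the blue points did not, and the dashed line at -0.20 is the median of 14 other endothelial genes.

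Control 2 differed most from the other libraries in these genes. It held the highest value of 7 of the 9 junction genes, and the median of the 9 was 0.15 above the control mean on the log2 scale in that library, against -0.03 in control 1 and -0.14 in control 3. Ecko 1, 2 and 3 had -0.23, -0.22 and -0.20, so the 3 ecko libraries were more alike than the 3 controls. The median log2 fold change of the 9 was -0.10 without control 2 and -0.28 without control 3. In the 4 libraries with Ddx3y reads it was -0.11, with 0 of 9 called. Between the remaining 2 libraries, ecko 3 against control 2, 8 of the 9 were lower, with a median difference of -0.30 and no test.

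Other endothelial genes lay about as far below the controls as the junction genes. A reference list of 14 genes shared by endothelial cells, such as the receptor genes Tie1 and Tek and the sialomucin gene Emcn, was centred on a log2 fold change of -0.20 (median). Of the 14, 11 were lower, where 50.5% of all genes were, 3 were higher and 0 were called. In 4 of the 14, Tie1, Emcn, Robo4 and Ecscr, the ecko libraries were below every control, where 8.11% of all genes were. The mean level of the list was 4.57, 4.77 and 4.47 log2 CPM for the controls against 4.44, 4.43 and 4.51 for ecko, highest in control 2 as for the junction genes.

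Set against that reference within each library, the differences between the groups became smaller for 7 of the 9 genes, and the median over the 9 was -0.02 log2. It was -0.06 with the first 7 reference genes alone and ran from -0.01 without control 1 to -0.07 without control 3. This subtraction was not tested. Cdh5 was 2.18, 2.31 and 2.24 above the mean of the reference in the controls and 2.08, 2.19 and 2.14 above it in ecko, with overlapping groups. Pecam1 was 2.62 ± 0.03 above it in the controls and 2.60 ± 0.06 in ecko (SD, n = 3). Arhgef15 had the lowest difference, -0.34, from -0.67 ± 0.13 to -1.01 ± 0.19 (SD, n = 3), with groups that overlapped through ecko 2 and control 3. Rasip1 was the 1 junction gene whose groups did not overlap on this scale, at -0.42, -0.44 and -0.27 for the controls against -0.50, -0.53 and -0.48 for ecko. Jam3 and Cldn5 had differences of 0.13 and 0.07, and that of Cldn5 was -0.06 without ecko 3. For scale, each of the 14 reference genes set against the other 13 differed by -0.17 to 0.30. That range holds the -0.13 of Rasip1 but not the -0.34 of Arhgef15. With 1 library left out the Arhgef15 difference ran from -0.447 to -0.275. Among the 14 reference genes the groups of Cd93 (-0.12) and Mmrn2 (0.30) did not overlap either. The share of all genes separated on this scale was not computed.

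**Figure D3:**
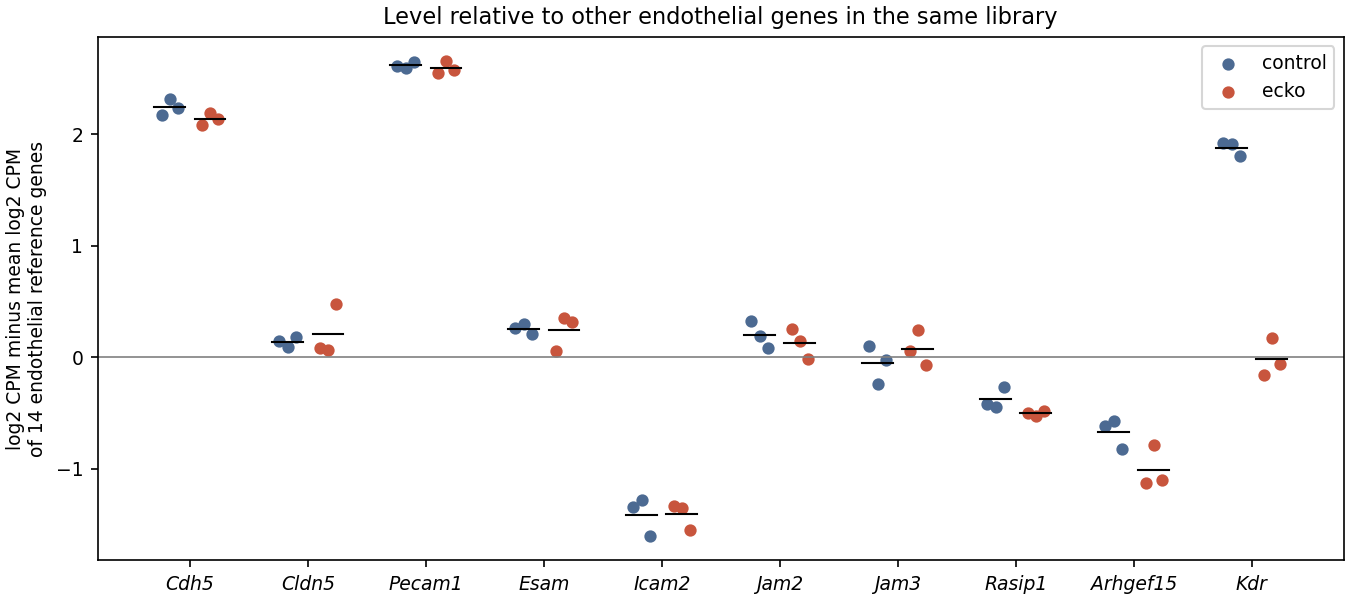
Log2 CPM of each gene minus the mean log2 CPM of 14 endothelial reference genes in the same library, on the vertical axis, for control (blue) and ecko (red) libraries, with a line at the mean of 3. Most junction genes sit at nearly the same height in both groups, Arhgef15 is 0.34 lower in ecko, and Kdr is 1.9 lower.

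The deleted gene was set against Cdh5 in the same way. Per count of Cdh5 there were 0.839, 0.760 and 0.738 counts of Kdr for the controls against 0.211, 0.246 and 0.216 for ecko. The same ratio for Pecam1 was 1.3 ± 0.08 in the controls and 1.38 ± 0.02 in ecko (SD, n = 3), with groups that overlapped. For Arhgef15 it was 0.132 ± 0.013 and 0.112 ± 0.012, and for Rasip1 0.162 ± 0.014 and 0.159 ± 0.008, again with overlap.

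Levels were compared between genes after division by exon length, as TPM, that is, counts per base of exon scaled to the same total in each library. In the controls Pecam1 was the most abundant of the 9 at 96.8 ± 10.1 TPM (SD, n = 3), then Cdh5 at 77.5 ± 12.4, Cldn5 at 50.4 ± 4.67 and Esam at 41.8 ± 6.40. Jam3 followed at 32.1 ± 3.17, Icam2 at 19.2 ± 4.45, Rasip1 at 15.5 ± 1.11, Jam2 at 12.4 ± 2.02 and Arhgef15 at 9.39 ± 1.94 TPM. The control values of Pecam1 and Cdh5 overlapped, as did those of Cldn5 and Esam, of Icam2 and Rasip1, and of Jam2 and Arhgef15. Within a library, the gene with the higher mean was above its neighbour in 6 of 6 libraries for 7 of the 8 neighbouring pairs of junction genes, and in 5 of 6 for Icam2 over Rasip1. Kdr stood at 40.7 ± 6.49 TPM in the controls, level with Esam, and at 10.0 ± 1.05 TPM in ecko, level with Jam2 at 10.9 ± 0.84 TPM. The order of the 9 junction genes by mean was the same in ecko.

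**Figure D4:**
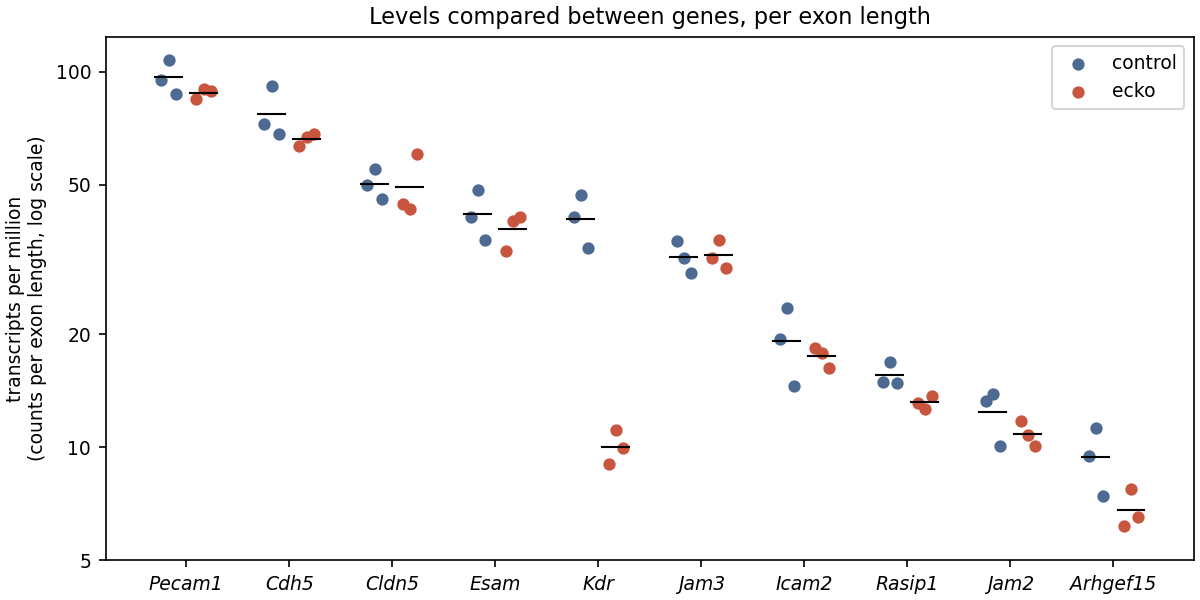
TPM (counts per exon length, scaled to the same total in each library; log axis) for the junction genes and Kdr, ordered by the control mean, with 3 control (blue) and 3 ecko (red) libraries and a line at each mean. Pecam1 and Cdh5 lead and Arhgef15 is lowest, and the order of the junction genes is the same in both groups while Kdr drops from 40.7 to 10.0.

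Across the 6 libraries some junction genes followed each other closely and others did not. Cdh5 and Pecam1 were the closest pair, with a Pearson correlation of 0.99 between their log2 CPM, followed by Pecam1 with Arhgef15 (0.95) and Pecam1 with Esam (0.92). The median correlation with the other 8 was 0.81 for Cdh5 and 0.80 for Pecam1 and Arhgef15, but 0.37 for Cldn5 and 0.19 for Jam3. Cldn5 and Jam3 ran against each other at -0.43. These values come from 6 libraries that share the group difference and the high control 2, so they describe these libraries and carry no p.

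Of 12158 further genes with a mean of at least 100 counts, the 5 whose log2 CPM was most like that of Cdh5 were Rasgrp2 (0.99), Smim1 (0.99), Faim (0.99), Lrrfip1 (0.99) and Engase (0.98). Among those most like the mean of the 9 were Gemin5 (1.00), Rnpepl1 (0.99), C130074G19Rik (0.99) and Emcn (0.98). Kdr correlated with Cdh5 at 0.78. Values this high were common over 6 libraries: 107 genes were above 0.9 with Cdh5 and 130 with the mean of the 9.

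The partners of these proteins at the junction are mostly expressed by many skin cells, and none of them passed the test. Of 10 cadherin and catenin partners, 7 were lower and 3 higher by their means in ecko, and the median log2 fold change was -0.07. Ctnnb1, β-catenin, had -0.08, Ctnnd1, the p120 catenin that keeps VE-cadherin at the surface, 0.03, Ctnna1, α-catenin, -0.09, and Jup, plakoglobin, -0.12. The ecko libraries were below every control for Ctnnb1 and Vcl, the vinculin gene, and above every control for Ctnnd1, where over all genes 8.11% were below and 7.55% above.

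Of 10 tight junction scaffold genes, 7 were lower and 3 higher, with a median of -0.04. Tjp1, the ZO-1 scaffold that binds claudins, had a log2 fold change of -0.01, the occludin gene Ocln 0.10 and F11r, which encodes JAM-A, 0.10. Pard6g, a cell polarity gene, was the 1 gene of this list with all ecko libraries below the controls (-0.26 ± 0.09, SE; adjusted p 0.477). Over all genes 8.11% were separated in that direction.

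The RAP1 and cerebral cavernous malformation genes act with Rasip1, and of these 10 genes 6 had a higher and 4 a lower mean, with a median of 0.02. Rap1a had 0.11, Rap1b -0.06, the exchange factor gene Rapgef3 (EPAC1) 0.00 and Radil, whose protein binds Rasip1, 0.22 ± 0.12 (SE; adjusted p 0.610). Radil was above every control in all ecko libraries, where 7.55% of all genes were. It stood at 7.45 ± 0.28 CPM in the controls and 8.71 ± 0.22 CPM in ecko (SD, n = 3). Rapgef1, at -0.08, was below every control in all ecko libraries, where 8.11% of all genes were.

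Of 10 further small GTPases and GTPase regulators, 7 were lower and 3 higher with a median of -0.04, and no groups were separated. Rhoj, a GTPase of endothelial cells, had 0.06, Cdc42 -0.06, Rhoa -0.06 and Rac1 -0.02. Of 10 genes of leukocyte adhesion at the vessel wall, 8 were counted well enough to test, with 5 lower, 3 higher and a median of -0.07. Icam1 had a log2 fold change of 0.13, Vcam1 -0.18, and Selp, P-selectin, 0.11. Sele, the E-selectin gene, had -0.46 ± 0.31 (SE), which rested on control 3: that library had 7.15 CPM against 2.99 to 3.51 CPM in the other 5, and without it the value was 0.03. Podxl, an anti-adhesive sialomucin of the vessel lumen, had all ecko libraries below the controls, as 8.11% of all genes did (-0.37 ± 0.10, SE; adjusted p 0.359). The 8 genes of lymphatic endothelium, which also carries VE-cadherin and claudin-5, had a median of -0.02, with 5 lower, 3 higher and no groups separated. The part of other skin cells in the counts of these 8 genes was not tested. Of the other marker lists, mural cells had a median of 0.02, Schwann cells 0.09 and keratinocytes, for keratins and junctions, -0.07. Skeletal muscle had 0.04 and platelets 0.01 over 4 tested genes, and each of these lists had 0 called.

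**Figure D5:**
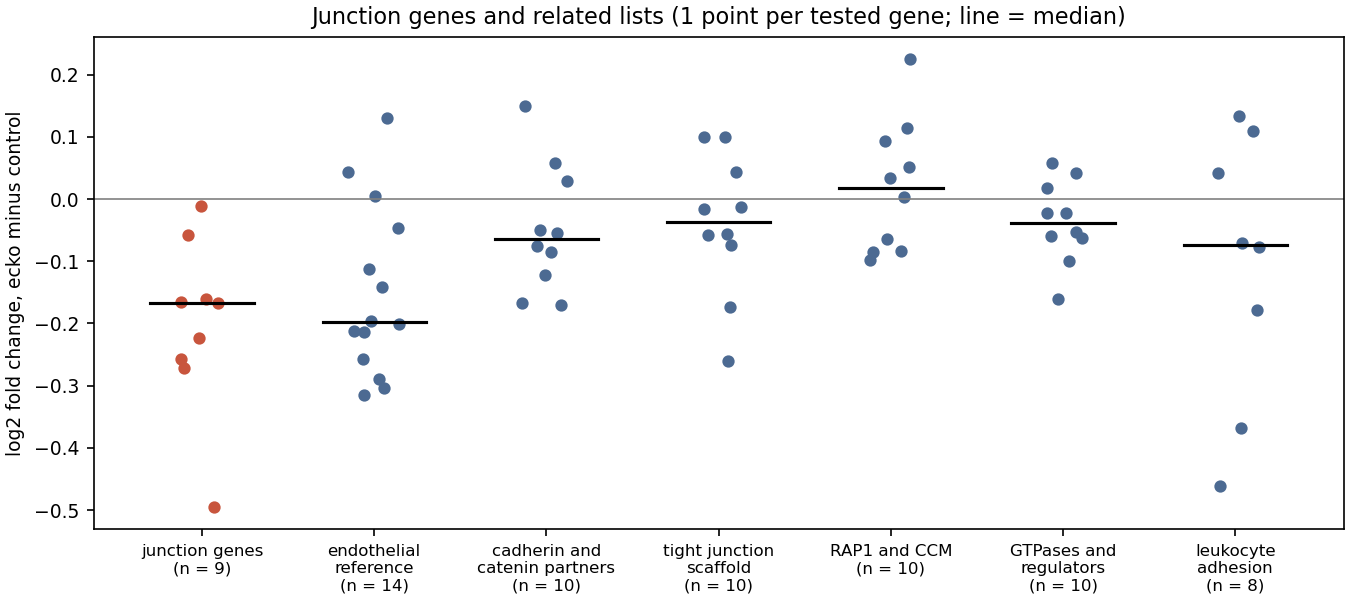
Log2 fold change, ecko minus control, on the vertical axis for each tested gene of the junction genes (red) and 6 related lists (blue), with a line at each median. The junction genes (-0.17) and the endothelial reference (-0.20) sit lowest, and the medians of the other lists lie between -0.07 and 0.02.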

How the data were processed

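The deposited table holds expected counts per gene, unscaled; between 10.1% and 10.4% of a library's values are fractions. Per the submitters' processing notes the build was GRCm38.p6 and the tools RSEM 1.3.1, HISAT2 2.2.1 and Bowtie2 2.4.5; annotation and strand setting are not given in the sources used here.

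Counts were rounded and tested with edgeR 4.0.16 (R 4.3.3, quasi-likelihood, robust, filterByExpr with a minimum count of 10, TMM), two-sided, with Benjamini-Hochberg adjustment over 14920 genes at 0.05. The SE is the absolute log2 fold change over the square root of F. Log2 CPM used a prior count of 2. An exact permutation test of 3 against 3 cannot go below 0.1. The fit was tested on simulated data. Reads carry no molecular identifiers. Exon lengths for TPM came from GENCODE M21 (96.4% of genes matched by symbol), positions and promoters from RefSeq.

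Alternatives were DESeq2 1.42.0, limma-voom (limma 3.58.1), another scaling by size factors, keeping low counts, a replicate block and leaving out each library; the 4 libraries with Ddx3y reads and scaling by totals alone were chosen after seeing the data. Members, lists and alternatives were chosen with earlier results of these data known. Named are the members, Kdr and the first 4 genes of each partner list as written; genes with separated groups and the marker genes were named after their values were seen. Some genes that the naming rules select are not reported here, and list counts and medians include them.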

Additional observations from a re-analysis of the deposited data

How the results depend on the processing

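No junction gene was called in any of the alternatives with a test, and Kdr was called in each of them. Scaling by totals alone was used to compare levels, with no test. The number of genes called over the whole table moved: DESeq2 called 26 lower and 87 higher, the edgeR fit with the replicate block 10 and 88, and the 4 libraries with Ddx3y reads 2 and 2, while leaving out 1 library gave 1 lower and 0 to 2 higher. The labels number the replicates alike in both groups. Deviations of equal numbers from their group means correlated at 0.16, -0.24 and -0.07 across all genes tested, so the numbers are not taken as pairs. Over the 9 junction genes alone they correlated at 0.42, 0.15 and 0.52, and unequal numbers at -0.60 to 0.38. With the replicate block 0 of the 9 passed, and Arhgef15 had -0.49 with an edgeR adjusted p of 0.201.

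With 1 library left out the log2 fold change of Cldn5 ran from -0.235 to 0.0313 and that of Jam3 from -0.0841 to 0.0538, so both turned sign. With the 4 libraries with Ddx3y reads Jam3 had 0.0254 and Icam2 0.0426, and the RAP1 list had a median of 0.0545. The other 6 kept their sign, with Arhgef15 between -0.62 and -0.35 when 1 library was left out. The number of junction genes with separated groups was 2 by library totals alone and ran from 4 to 7 with 1 library left out, where 6.62% and 10.4% to 15.6% of all genes were separated in that direction. The median of the cadherin and catenin partners ran from -0.115 to -0.0295 and that of leukocyte adhesion from -0.133 to -0.0024 with 1 library left out. The cause of these shifts was not tested. With 3 libraries a group the 95% intervals of the 9 genes still hold changes of 15.2% or more below the control mean.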
